A study of Homo sapiens with 40 samples.

Results

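The genes described are those that make cholesterol and fatty acids, measured after X-rays in AG01522, a human skin fibroblast line from normal tissue. Of 30 genes listed as enzymes, regulators or carriers of these pathways, 29 had a probe set annotated to that gene alone, and FDFT1 was not analysed here. They were 20 genes of the sterol branch and 9 of the fatty acid branch, out of 18244 genes measured. Where a gene had several probe sets, the one with the highest mean over all 40 arrays stood for it. The cultures were confluent when they were treated. The 12 irradiated groups were given a priming dose and, 12 h later, the larger challenge dose (5 cGy + 2 Gy), or 2 Gy alone, or 5 cGy alone. RNA was taken at 3, 6, 12 or 24 h, counted from the final dose, and each group had 3 arrays. The 4 sham arrays carry a code for 0 h and served as the control for every time, so that time after irradiation and time in culture cannot be told apart in a comparison with sham. The series was designed to ask how the priming dose alters the response to the challenge dose. All cells were of 1 line, so the values describe that line.

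Cells build cholesterol from acetyl-CoA through mevalonate, isoprenoid units, squalene and lanosterol, and they build fatty acids from malonyl-CoA. Both pathways are governed by SREBP transcription factors. These are held in the endoplasmic reticulum when sterols are plentiful and are released to the nucleus when sterols run low. SREBF2 encodes SREBP-2, which mainly drives the sterol genes, and SREBF1 encodes SREBP-1, which mainly drives the fatty acid genes. Fibroblasts in culture carry out both syntheses and also take up lipid from serum, and INSIG1, itself an SREBP target, encodes a protein that retains the SREBPs in the endoplasmic reticulum.

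Promoters of 4 of the 5 genes called against sham are printed here because SREBPs work at promoters with partner factors. In the windows of LPIN1, the other one, GGGCGG was the only motif matched of those searched, and they are not printed. Each window holds 250 bases before and 50 bases after a RefSeq transcription start (build GRCh38.p14), read 5′ to 3′ on the gene's strand, and 26 of the 29 members had at least 1 window. Capitals mark matches, on either strand, to TCACNCCAC (a core of the sterol regulatory element), CCAAT (the NF-Y box) and GGGCGG (the GC box bound by Sp1), and neighbouring matches can overlap.
SREBF2, chr22:41832855-41833154, plus strand: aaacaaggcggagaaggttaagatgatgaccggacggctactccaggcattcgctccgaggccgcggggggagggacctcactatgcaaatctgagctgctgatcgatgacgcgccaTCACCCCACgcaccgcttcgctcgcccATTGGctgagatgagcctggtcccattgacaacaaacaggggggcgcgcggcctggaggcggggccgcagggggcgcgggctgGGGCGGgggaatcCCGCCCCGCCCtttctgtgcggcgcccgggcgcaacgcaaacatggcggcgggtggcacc
LSS, chr21:46228725-46229024, minus strand: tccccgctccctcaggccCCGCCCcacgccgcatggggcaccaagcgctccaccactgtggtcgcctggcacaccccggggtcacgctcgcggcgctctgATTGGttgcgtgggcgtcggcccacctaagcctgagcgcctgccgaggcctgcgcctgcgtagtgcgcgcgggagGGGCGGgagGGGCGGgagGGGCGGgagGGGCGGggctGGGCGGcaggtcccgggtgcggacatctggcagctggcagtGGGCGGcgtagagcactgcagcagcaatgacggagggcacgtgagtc
DHCR7, chr11:71448344-71448643, minus strand: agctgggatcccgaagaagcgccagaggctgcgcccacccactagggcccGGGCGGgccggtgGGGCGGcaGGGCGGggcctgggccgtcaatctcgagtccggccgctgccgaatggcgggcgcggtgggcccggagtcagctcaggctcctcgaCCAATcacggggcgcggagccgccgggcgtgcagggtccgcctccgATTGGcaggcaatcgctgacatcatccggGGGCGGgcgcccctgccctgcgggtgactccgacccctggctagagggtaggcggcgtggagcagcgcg
SCD, chr10:100346983-100347282, plus strand: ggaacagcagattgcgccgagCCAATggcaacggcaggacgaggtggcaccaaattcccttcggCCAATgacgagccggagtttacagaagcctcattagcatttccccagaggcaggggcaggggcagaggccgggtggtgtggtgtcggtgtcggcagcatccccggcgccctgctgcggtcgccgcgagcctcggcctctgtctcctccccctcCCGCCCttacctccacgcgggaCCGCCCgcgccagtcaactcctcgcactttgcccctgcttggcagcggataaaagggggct
The SREBF2 window held TCACCCCAC, at position -133 from the start, followed by a CCAAT match on the other strand, and SREBF2 was the only gene among the members whose window matched TCACNCCAC. That motif stood in 1.13% of all 35116 windows. CCAAT stood in 24 of the 37 windows of the members (64.9%), against 34.6% of all windows and 34.7% of the windows of genes on the array. GGGCGG stood in 32 of the 37 (86.5%), against 45.0% of all windows and 57.2% of those of genes on the array. By gene, CCAAT was found for 16 of 18 sterol genes with a window and for 4 of 8 fatty acid genes (ACACA, ACLY, FADS2 and SCD). The LSS window and the printed DHCR7 window held 7 and 4 GC boxes, and the SCD window held 2 CCAAT boxes. RefSeq gives DHCR7 a further start, whose window matched none of the 3 motifs and is not printed. These matches are letters in a window and were not tested as binding sites.

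The values are log2 intensities made by RMA, and a difference of 1 is a doubling. The lowest correlation between arrays was 0.969. A gene was called in a comparison when its p from limma, adjusted by Benjamini-Hochberg over all genes, was under 0.05. The means of all 10 fibroblast markers lay above the median gene mean (6.58), and none of the adipocyte (7), melanocyte (4), endothelial (5) or leukocyte (4) markers did. Of 5 keratinocyte markers 1 did (KRT10, mean 10.37), while KRT5 (4.57) and KRT1 (4.72) did not. The median over all probe sets was lower on every array, and ADIPOQ (6.39), CIDEC (5.92), PPARG (5.89), TEK (6.52) and KRT14 (6.05) had means above it. The difference between the 3′ and 5′ probe sets of GAPDH, a sign of RNA quality, was 1.05 on array 1 of 2 Gy at 24 h, 0.63 and 0.68 on arrays 1 and 2 of 2 Gy at 3 h, and at most 0.425 on the other arrays. In bulk samples such as these, fewer cells of a type and less RNA per cell cannot be told apart.

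The arrays numbered 1 stood apart for these genes. The mean of the sterol branch was highest on array 1 in 13 of 13 groups, by 0.21 on average over the other arrays, and so was that of the fatty acid branch, by 0.22. HMGCS1, IDI1, SQLE, MSMO1, ACACA and LPIN1 were highest on array 1 in 13 of 13 groups, SCD in 12, and CYP51A1 and HSD17B7 in 11. Their excess reached 0.74 for MSMO1 and 0.71 for HMGCS1. LSS (4 groups), SREBF1 (4), MVD (2) and FASN (1) did not share it. Array 1 was highest in 10 or more groups for 30% of the sterol genes and 44.4% of the fatty acid genes, against 9.77% of all genes. Array 1 of 5 cGy + 2 Gy at 24 h was also the highest of all 40 arrays for 15 of 20 sterol genes and 6 of 9 fatty acid genes, against 3.76% of all genes. Results that rest on it are given with and without it below.

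The model used group means and took no account of the array numbers. In it, members were called against sham only at 24 h after 5 cGy + 2 Gy, where 5 rose and 0 fell. They were LSS, DHCR7 and SREBF2 of the sterol branch and SCD and LPIN1 of the fatty acid branch. That is 5 of 29 members, while 9.92% of all genes were called in that comparison and 5.86% were called higher. In the other 11 comparisons with sham limma called 0 of the 29, and the smallest adjusted p of a member was 0.0934 (STARD4, 12 h after 5 cGy). The share of all genes called there was 0% at 3 h, 0% at 6 h, 0.329% at 12 h and 3.11% at 24 h after 5 cGy. It was 0.132% at 3 h, 0.192% at 6 h, 0.669% at 12 h and 6.06% at 24 h after 2 Gy. After 5 cGy + 2 Gy it was 0.132% at 3 h, 0.378% at 6 h and 1.4% at 12 h. An F test over the 12 comparisons called LSS (adjusted p = 0.025), SREBF1 (0.0324) and STARD4 (0.0338), 3 of 29 (10.3%), against 11.2% of all genes.

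**Figure D1:**
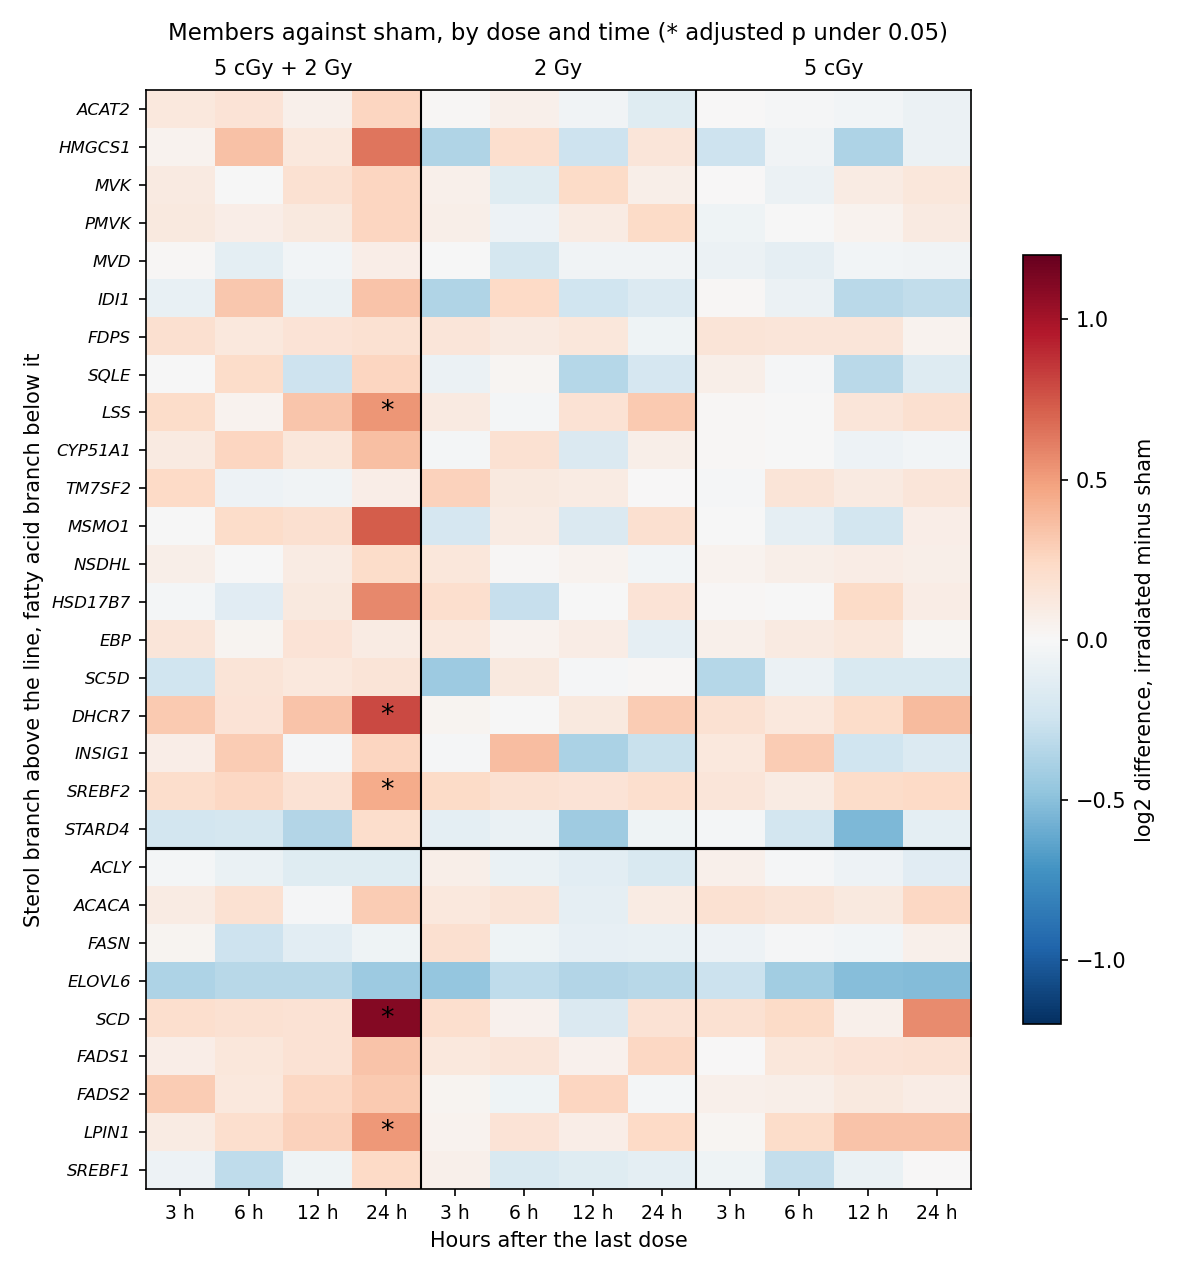
Differences of the 29 members from sham on the log2 scale (colour), by treatment and hours after the last dose (columns), with the sterol branch above the line and the fatty acid branch below it; stars mark an adjusted p under 0.05. The stars stand in the 24 h column of 5 cGy + 2 Gy, at LSS, DHCR7, SREBF2, SCD and LPIN1, and SCD has the largest difference there (1.10).

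LSS, lanosterol synthase, closes squalene epoxide into the sterol ring. Its values 24 h after 5 cGy + 2 Gy were 8.59, 8.25 and 8.27, against 7.54, 7.70, 7.99 and 8.12 in sham. Every irradiated array lay above every sham array, and the spread within sham was wider than within the irradiated group. The difference was 0.53 ± 0.117 (SE, n = 3 and 4, 1.45-fold, limma adjusted p = 0.00258). The same gene was at 8.08, 8.10 and 8.29 after 2 Gy (0.32 over sham, adjusted p = 0.11) and at 8.01, 8.05 and 8.04 after 5 cGy (0.20, adjusted p = 0.452).

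DHCR7 catalyses the last reduction to cholesterol in one arm of the pathway. It stood at 8.80, 7.99 and 7.99 at 24 h after 5 cGy + 2 Gy, against 7.06, 7.36, 7.64 and 7.82 in sham. Array 1 was far above the other irradiated arrays, and these still lay above all sham arrays. The difference was 0.79 ± 0.181 (SE, n = 3 and 4, 1.73-fold, limma adjusted p = 0.00362).

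SREBF2, the gene of the factor that governs the branch, read 7.92, 7.31 and 7.74 in the 5 cGy + 2 Gy cells at 24 h, against 7.10, 6.97, 7.40 and 7.38 in sham. Array 2 lay within the sham values, so the groups overlapped. The difference was 0.45 ± 0.112 (SE, n = 3 and 4, 1.36-fold, limma adjusted p = 0.00799). The sham mean (7.21) was the lowest of the 13 group means of SREBF2, and each of the 3 arrays after 5 cGy at 24 h (7.45, 7.41 and 7.47) was also above all sham arrays (0.24, adjusted p = 0.294).

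SCD encodes the desaturase that puts the first double bond into saturated fatty acids. Its values at 24 h after 5 cGy + 2 Gy were 10.64, 9.08 and 9.05, against 8.68, 7.89, 8.76 and 8.64 in sham. All irradiated arrays were above sham, and array 1 exceeded the others by more than they exceeded sham. The difference of 1.10 ± 0.345 (SE, n = 3 and 4, 2.15-fold, limma adjusted p = 0.0354) was the largest among the members. The highest value outside that group was 9.59, on array 1 of 5 cGy at 24 h, whose other arrays read 8.63 and 8.93.

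LPIN1 encodes lipin 1, which makes diacylglycerol for triglyceride synthesis. It read 9.25, 8.51 and 8.44 at 24 h after 5 cGy + 2 Gy, against 8.40, 8.32, 8.15 and 7.97 in sham. The groups did not overlap, but array 3 was close to the highest sham array. The difference was 0.52 ± 0.171 (SE, n = 3 and 4, 1.43-fold, limma adjusted p = 0.0475). LPIN1 was also above every sham array 24 h after 5 cGy, at 8.61, 8.49 and 8.57 (0.35, adjusted p = 0.321).

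**Figure D2:**
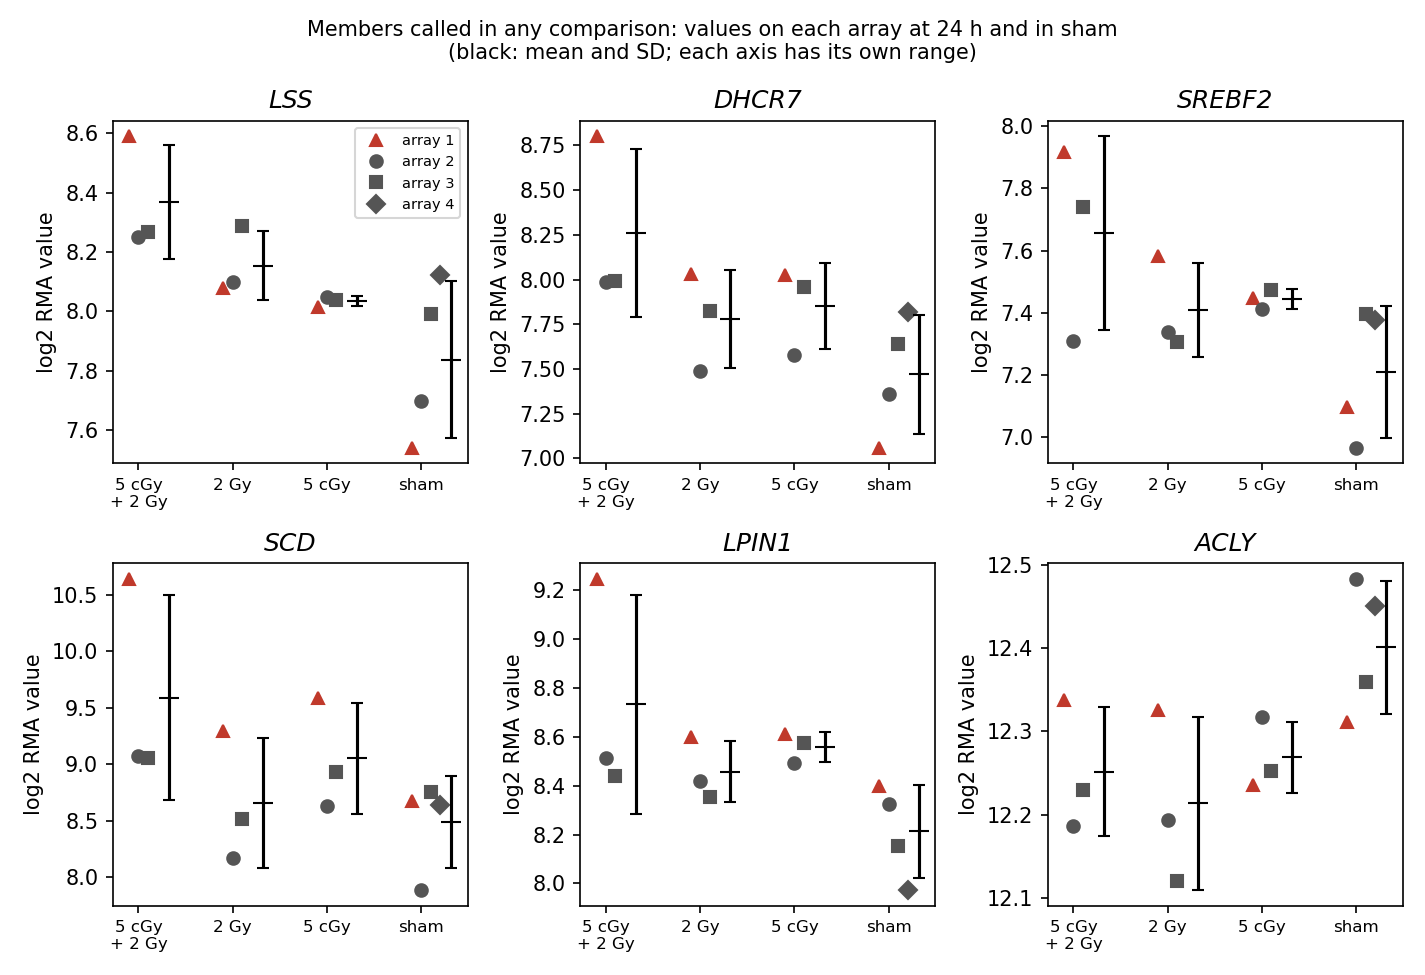
Log2 RMA values of the 6 members called in any comparison, on each array at 24 h after 5 cGy + 2 Gy, 2 Gy or 5 cGy and in sham; symbols give the array number, and black bars the mean and SD. LSS, DHCR7, SCD and LPIN1 lie above all sham arrays on every 5 cGy + 2 Gy array, with array 1 (red) the highest, at 10.64 for SCD.

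Most of the other members were also above sham at 24 h after 5 cGy + 2 Gy, without being called. All 20 sterol genes were above their sham mean, with a median difference of 0.26 and a range of 0.08 to 0.79, and 6 of 9 fatty acid genes were, with a median of 0.31 and a range of -0.43 to 1.10. The median of all genes was 0.01, and 51.3% of all genes were above sham. At an unadjusted p under 0.05, 14 members were higher and 1 was lower (ACLY), while 13.1% of all genes were higher at that p. For 6 members every irradiated array lay above every sham array, which held for 9.09% of all genes.

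Among the early steps, HMGCS1, which makes HMG-CoA, averaged 7.63 at 24 h after 5 cGy + 2 Gy and 6.99 in sham (0.64 ± 0.352, limma adjusted p = 0.288). Its sham array 1 (7.96) was above all 3 irradiated arrays (7.92, 7.58 and 7.40). The mevalonate kinase MVK (0.25, adjusted p = 0.134) and PMVK (0.26, 0.218) had smaller differences, and MVD, the decarboxylase that follows them, had 0.08. IDI1, which isomerises the isoprenoid unit, differed by 0.34 (adjusted p = 0.544), and SQLE, squalene epoxidase, by 0.26 (0.596), both with wide spreads between arrays.

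Of the enzymes after lanosterol, MSMO1, the sterol C4 methyl oxidase, stood at 11.20, 10.52 and 10.53 in the 5 cGy + 2 Gy cells at 24 h, against 10.74, 10.06, 9.58 and 9.71 in sham. The groups overlapped through sham array 1 (0.73 ± 0.324, limma adjusted p = 0.17). HSD17B7, a sterol keto reductase, read 5.61, 5.03 and 4.94, against 4.88, 4.57, 4.59 and 4.43 in sham. Its arrays did not overlap, and the difference was 0.58 ± 0.207 (limma adjusted p = 0.0729). HSD17B7 was dim, with a mean of 4.69 over all arrays, at percentile 26 of all genes by level. CYP51A1, the lanosterol demethylase, differed by 0.36 (adjusted p = 0.215), whereas TM7SF2 (0.08), EBP (0.10) and SC5D (0.15) had differences within their standard errors (0.11, 0.149 and 0.216) on the probe sets used. The differences on the other probe sets of SC5D ran from 0.01 to 0.68.

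In the fatty acid branch, FADS1, the delta-5 desaturase, was not called, with 9.74, 9.47 and 9.43 at 24 h after 5 cGy + 2 Gy, against 9.27, 9.12, 9.27 and 9.15 in sham (0.34 ± 0.114, limma adjusted p = 0.0506). That value depends on the probe set, since the 2 others of FADS1 differed by 0.59 and 0.60, and the mean of its probe sets was called (0.51, limma adjusted p = 0.00141). FADS2, the delta-6 desaturase, differed by 0.32 (adjusted p = 0.197), with array 1 at 8.54 and the others at 7.63 and 7.73, inside the sham values. FASN, the fatty acid synthase, averaged 7.41 against 7.46 in sham (-0.05 ± 0.101), and ACLY, which supplies cytosolic acetyl-CoA, averaged 12.25 against 12.40 (-0.15 ± 0.0718, limma adjusted p = 0.209). ACACA, acetyl-CoA carboxylase, differed by 0.31 (adjusted p = 0.352). ELOVL6, which lengthens palmitate, read 5.60, 5.33 and 5.20, against 6.56, 6.02, 5.16 and 5.50 in sham (-0.43 ± 0.223, limma adjusted p = 0.251).

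The calls rested in large part on array 1 of 5 cGy + 2 Gy at 24 h. Without it LSS alone stayed called, the sterol median was 0.12 and the fatty acid median 0.07, with 24 of 29 members above sham. With every array numbered 1 left out, in all groups, 3 members were called (HMGCS1, MSMO1 and HSD17B7) and none of the 5, and the medians were 0.15 and 0.02. Without sham array 1, 8 members were called, and without sham array 2, 2 were. The count over all genes moved too, from 1809 with all arrays to 2255 without sham array 1 and 1127 without sham array 2. It was 1197 without array 1 of 5 cGy + 2 Gy. In a model of the 7 arrays compared alone, 0 members were called by limma. The number of all genes called in that smaller model is not given here. The mean of the sterol branch lay 0.64, 0.18 and 0.19 above the sham mean on the 3 arrays, and that of the fatty acid branch 0.62, 0.05 and 0.06. Sham arrays lay between -0.09 and 0.09 for the sterol branch and between -0.07 and 0.11 for the fatty acid branch. So all 3 arrays lay above sham in the sterol branch, while arrays 2 and 3 lay within the sham range in the fatty acid branch.

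**Figure D3:**
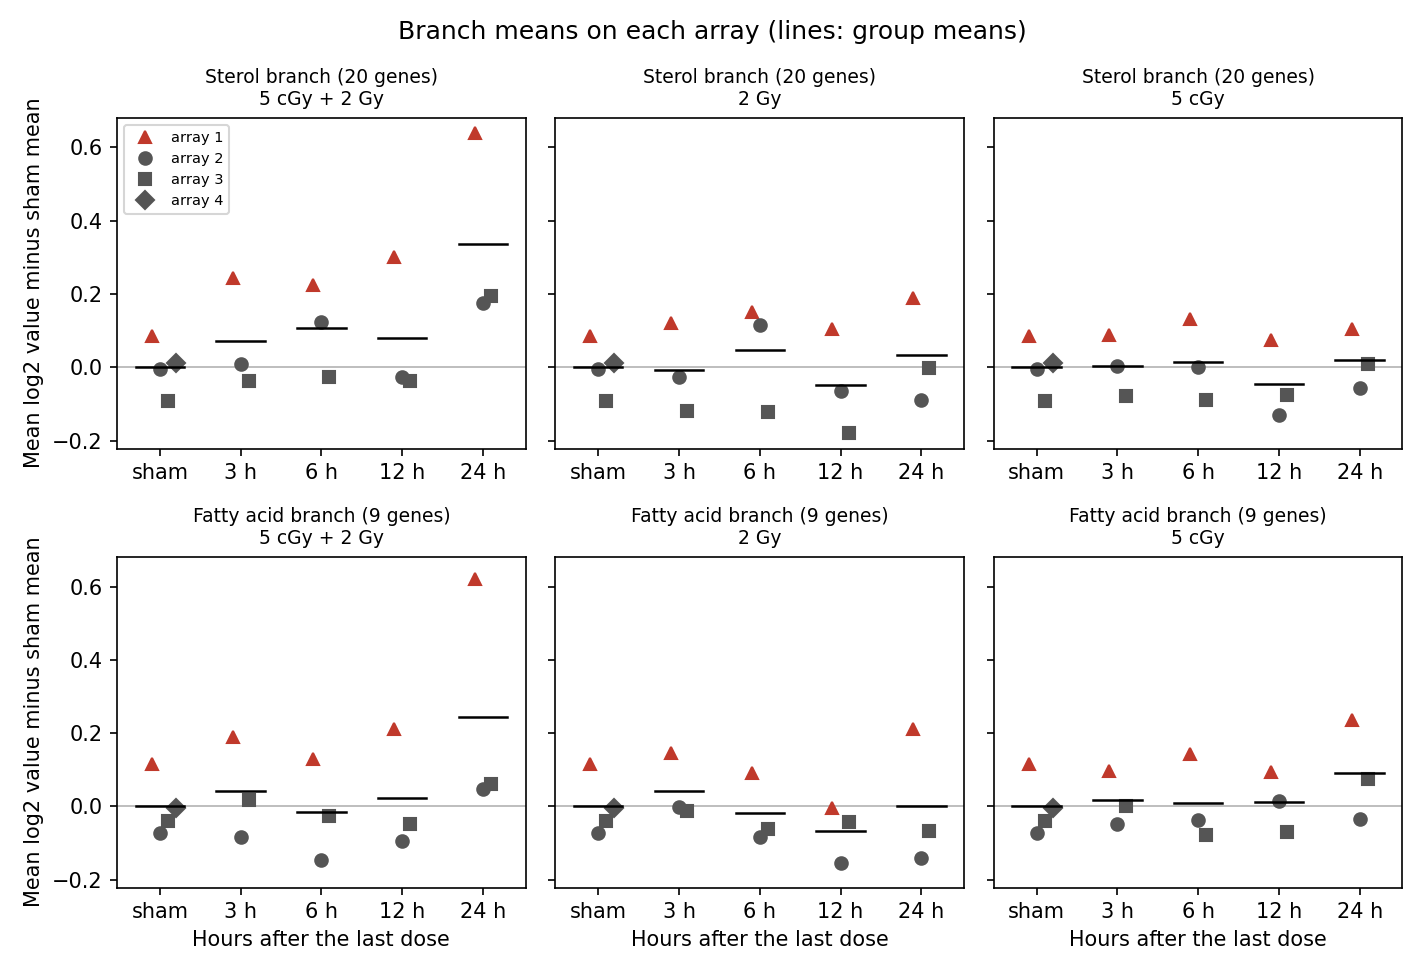
Mean log2 value of each branch on each array minus the sham mean, by treatment and hours after the last dose, with sham at the left of each panel; lines are group means and red triangles the arrays numbered 1. Array 1 is highest in each group, and at 24 h after 5 cGy + 2 Gy it stands at 0.64 and 0.62.

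Further probe sets existed for 24 of the members. Of these 51 probe sets, 43 differed in the same direction as the one used at 24 h after 5 cGy + 2 Gy against sham, 16 of them at an unadjusted p under 0.05, and 0 went the opposite way at that p. One set of SC5D differed by 0.68, where the set used differed by 0.15. The further sets of SREBF2 differed by 0.49 and 0.34, and those of LSS by 0.58 and 0.17. Those of SCD, which were all dimmer, differed by 0.18, 0.41 and 0.21, less than the set used. Those of LPIN1 differed by 0.42 and 0.04, and LPIN1 was not called with the mean of its probe sets. With cyclic loess, another scaling of the arrays, LPIN1 was not called either. LSS, ACAT2, CYP51A1, EBP, STARD4, FADS2 and HSD17B7 were read by probe sets whose suffix (_x_at) marks probes that can match other transcripts.

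The priming dose was read from 5 cGy + 2 Gy against 2 Gy at the same time after the final dose. The labels name no sham priming of the 2 Gy cells 12 h before that dose. Whether handling or time in culture also differed between these groups is therefore not known. At 24 h limma called 0 of 29 members and 0% of all genes, with a smallest adjusted p of 1. Nonetheless 28 of 29 members were higher with the priming dose (96.6%), while 45.6% of all genes were, and the median difference was 0.25 in the sterol branch and 0.20 in the fatty acid branch, against -0.01 over all genes. The fatty acid median was 0.35 with the GAPDH difference as a covariate and 0.35 without array 1 of 2 Gy at 24 h, the array on which that difference was 1.05. It was 0.09 without array 2 of 2 Gy and 0.31 without array 3 of 5 cGy + 2 Gy. At an unadjusted p under 0.05, 7 members were higher and 0 were lower, where 0.817% of all genes were higher. They were SREBF1, SCD, DHCR7, INSIG1, NSDHL, FADS2 and SREBF2. For NSDHL, HSD17B7, STARD4 and HMGCS1 every 5 cGy + 2 Gy array lay above every 2 Gy array, 4 of 29 members, where 3.62% of all genes did.

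SREBF1 read 8.04, 7.45 and 7.65 at 24 h after 5 cGy + 2 Gy, against 7.48, 7.34 and 7.24 after 2 Gy. Array 2 of the primed cells lay just below array 1 of the unprimed ones (0.36 ± 0.111, unadjusted p = 0.00303, limma adjusted p = 1). SCD stood at 10.64, 9.08 and 9.05, against 9.29, 8.17 and 8.51, so the groups overlapped through array 1 of 2 Gy (0.93 ± 0.369, 1.91-fold, limma adjusted p = 1). INSIG1 read 11.53, 11.07 and 10.95, against 10.48, 10.99 and 10.50 (0.53 ± 0.22, limma adjusted p = 1). DHCR7 differed by 0.48 ± 0.194 between these groups, and NSDHL, a sterol dehydrogenase, by 0.25 ± 0.105. On its other probe sets SREBF1 differed by 0.05 and 0.16, and SCD by 0.20, 0.25 and 0.26, less than on the sets used. INSIG1 differed by 0.50 and 0.56 on its other sets. Of the 51 further probe sets of members, 45 differed in the same direction as the set used. Of these, 5 had an unadjusted p under 0.05, and 0 sets went the opposite way at that p. The 95% interval of SCD ran from 0.18 to 1.68 and that of FASN from -0.18 to 0.26. Without array 1 of 5 cGy + 2 Gy at 24 h, 26 members were still above 0, with 0 at an unadjusted p under 0.05, and the medians were 0.11 and 0.02. With every array numbered 1 left out, 27 were above 0, 5 at that p.

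**Figure D4:**
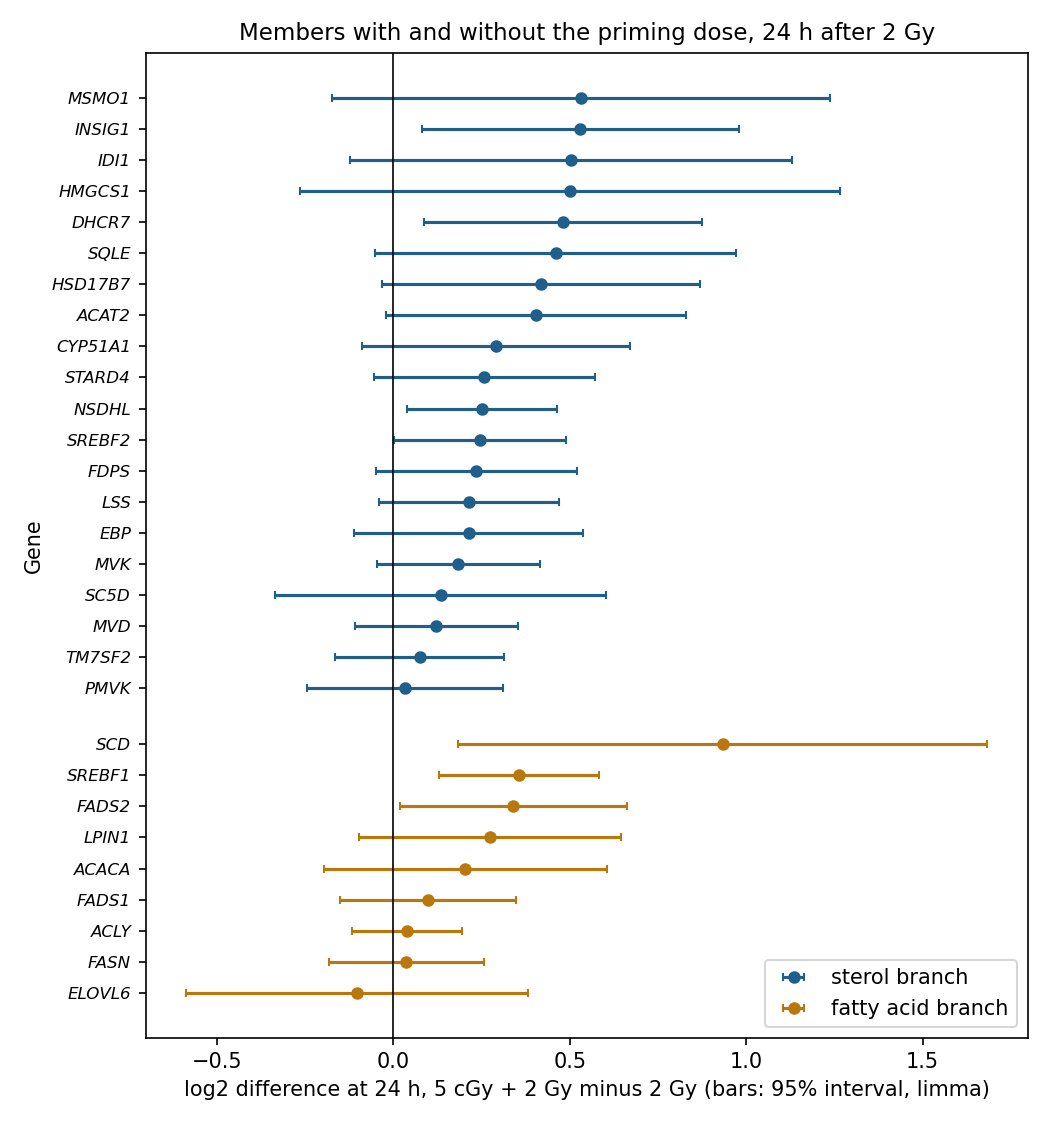
Log2 difference between 5 cGy + 2 Gy and 2 Gy at 24 h for each member, with 95% intervals from limma, sterol branch above and fatty acid branch below. The estimates lie right of 0 for 28 of 29 members, from 0.03 for PMVK to 0.93 for SCD, and the exception is ELOVL6 (-0.10).

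For 5 cGy + 2 Gy against 2 Gy limma called 0 members, and 0% of all genes, at 3, 6 and 12 h, and 0 members had an unadjusted p under 0.05 at any of these times. At that p stood 5.22% of all genes at 3 h, 3.6% at 6 h and 1.11% at 12 h. The median difference over the 29 members was 0.05 at 3 h, 0.06 at 6 h and 0.10 at 12 h. A test of whether the change between an earlier time and 24 h differed between treatments called 0 of 29 members in limma for each of 9 such differences, with 0 to 3 members at an unadjusted p under 0.05.

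Within a treatment, 24 h was set against 3 h, which leaves the sham arrays out. After 5 cGy + 2 Gy, limma called 0 of 29 members, with 4.99% of all genes called. The median was 0.24 in the sterol branch and 0.20 in the fatty acid branch. At an unadjusted p under 0.05, 9 members were higher and 0 lower, where 9.84% of all genes were higher. They were STARD4 (0.43 ± 0.154, limma adjusted p = 0.107), HSD17B7, SREBF1, LSS, DHCR7, SCD (0.90 ± 0.369), LPIN1, FADS1 and MSMO1. Without array 1 of 5 cGy + 2 Gy at 24 h, 0 members were higher at that p, and the sterol median was 0.09. Without array 2 of that group, or without array 1 at 3 h, 1 member was called.

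After 2 Gy alone the single member called between 24 h and 3 h was ACLY, which fell. It read 12.33, 12.19 and 12.12 at 24 h, against 12.43, 12.52 and 12.47 at 3 h. The groups did not overlap, and the difference was -0.26 ± 0.0768 (SE, n = 3 each, limma adjusted p = 0.0253). In that comparison 11.6% of all genes were called. FASN (-0.28, adjusted p = 0.085) and TM7SF2, a sterol reductase (-0.27, 0.127), differed in the same direction, and 3 members in all had an unadjusted p under 0.05, as 27.9% of all genes did. Arrays 1 and 2 of 2 Gy at 3 h and array 1 of 2 Gy at 24 h are those with the large GAPDH difference, whose part in this result was not tested beyond a fit with that difference as a covariate, in which 1 member was called. Without array 2 or 3 of 2 Gy at either time, 0 members were called. After 5 cGy alone, 0 of 29 were called by limma, with 3.11% of all genes, and ACLY (-0.19, adjusted p = 0.189) was the 1 member at an unadjusted p under 0.05, as were 15.5% of all genes.

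Between the single doses, 2 Gy against 5 cGy, limma called 0 members at each time. The share of all genes called was 0.0274% at 3 h, 0.0274% at 6 h, 0.011% at 12 h and 0.175% at 24 h. At 3 h, 2 members had an unadjusted p under 0.05, TM7SF2 (0.29 ± 0.118) and FASN (0.26 ± 0.108), and 0 had at the other times. At that p stood 9.02% of all genes at 3 h, 4.43% at 6 h, 3.24% at 12 h and 3.91% at 24 h. At 24 h the median over the members was -0.06, and SCD averaged 8.66 after 2 Gy and 9.05 after 5 cGy (-0.39).

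LSS at 12 h after 5 cGy + 2 Gy averaged 8.17, against 7.84 in sham (0.34 ± 0.117, limma adjusted p = 0.169). STARD4, a carrier of cholesterol between membranes, read 7.32, 7.09 and 7.13 at 12 h after 5 cGy, against 7.81, 8.12, 7.38 and 7.56 in sham. All of these arrays lay below sham (-0.54 ± 0.144, limma adjusted p = 0.0934). At 12 h it differed by -0.43 after 2 Gy (adjusted p = 0.216) and by -0.35 after 5 cGy + 2 Gy (0.287), comparisons that share the sham arrays. Its highest group mean, 7.93, was that of 5 cGy + 2 Gy at 24 h.

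SREBF1 showed its low at 6 h. It read 7.20, 7.15 and 7.16 after 5 cGy + 2 Gy and 7.10, 7.27 and 7.19 after 5 cGy, against 7.32, 7.51, 7.48 and 7.59 in sham. Neither group overlapped with sham (-0.31, limma adjusted p = 0.297, and -0.29, adjusted p = 0.64). INSIG1 had its highest mean at 6 h after each treatment, at 11.22 after 5 cGy + 2 Gy, 11.29 after 2 Gy and 11.23 after 5 cGy, against 10.92 in sham. Array 3 was the lowest array in these groups (10.82, 10.73 and 10.93), and no adjusted p of INSIG1 was under 0.05 in any comparison with sham. ELOVL6 had its highest group mean in sham (5.81), where array 1 read 6.56, and its 12 differences from sham, from -0.52 to -0.25, share that group.

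At the unadjusted threshold the counts of members after single doses or before 24 h were small. After 5 cGy they were 0 at 3 h, 1 at 6 h, 2 at 12 h and 3 at 24 h, where 3.52%, 5.94%, 8.98% and 15.7% of all genes had such a p. After 2 Gy they were 3 at 3 h, 0 at 6 h, 2 at 12 h and 3 at 24 h, where 13.3%, 6.15%, 9.83% and 18.9% of all genes did. After 5 cGy + 2 Gy they were 1 at 3 h, 3 at 6 h and 2 at 12 h, where 6.39%, 8.68% and 12.4% did. SREBF2 appears among them at 3 h after 2 Gy (0.23), at 6 h after 5 cGy + 2 Gy (0.25) and at 24 h after 5 cGy (0.24), each with an adjusted p above 0.05.

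Other genes of lipid metabolism were read for context at 24 h. After 5 cGy + 2 Gy against sham, 1070 of all 18244 genes were called higher at that time and 739 lower. Among 8 further genes of the sterol and isoprenoid pathway, 2 rose and 2 fell after 5 cGy + 2 Gy against sham. ERG28, a scaffold of sterol enzymes, rose by 0.54 and FAXDC2 by 1.18 (adjusted p = 0.00034), and COQ2 fell by 0.46 and PDSS1 fell by 0.71, both enzymes of ubiquinone synthesis. FAXDC2 also rose after 2 Gy (1.15) and after 5 cGy (adjusted p = 0.00146). Of 9 genes of the machinery that processes SREBPs, MBTPS1, the protease that makes the first cut (0.30), and INSIG2 (0.58) rose, and ERLIN1 fell by 0.32. Among 6 genes of uptake and lysosomal release, NPC2, a lysosomal cholesterol carrier, rose by 0.76.

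Of 9 genes that LXR drives or that esterify or export cholesterol, 4 rose after 5 cGy + 2 Gy. ABCA1, the cholesterol exporter, rose by 0.88 (adjusted p = 0.00322), and also by 1.17 after 2 Gy and by 0.98 after 5 cGy. CH25H, which makes 25-hydroxycholesterol, rose by 1.56 (adjusted p = 0.00306), LPCAT3 rose by 0.39 and SMPDL3A rose by 0.63. Of 21 further fatty acid synthesis genes, ACSS2 rose by 0.42, and ELOVL2 fell by 0.72 and SCD5 fell by 0.41. Of 15 oxidation genes, PPARGC1A rose by 0.72, and ANGPTL4 fell by 1.98 and ACAA2 fell by 0.49. Of 9 glycerolipid synthesis genes 0 were called by limma, and 1 had an unadjusted p under 0.05. For 5 cGy + 2 Gy against 2 Gy, 0 genes of these lists were called, as was the case for all genes.

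Genes of other programmes moved in the same group. Of 10 mitosis genes 9 fell at 24 h after 5 cGy + 2 Gy against sham (median -1.37), and 4 fell after 2 Gy (median -0.93). Of all 18244 genes, 739 and 411 were called lower in these 2 comparisons. At 24 h after 5 cGy, 0 of the 10 were called (median 0.05). Among the markers, PPARG, the adipocyte regulator, rose by 1.04 (adjusted p = 0.000549), while 0 of the 7 adipocyte markers had a mean above the median gene mean (6.58). The mean of the adipocyte list, PPARG included, lay between 5.24 and 5.34 on the 5 cGy + 2 Gy arrays and between 5.11 and 5.23 on the sham arrays. PPARG was the 1 adipocyte marker called. ADIPOQ differed by 0.03, CIDEC by 0.11 and LPL by 0.13, and PLIN1 by -0.10, LEP by -0.11 and FABP4 by -0.44. PDGFRB rose by 0.41 among the fibroblast markers and TEK fell by 0.83 among the endothelial ones. The part of these changes in the members' values was not tested.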

How the data were processed

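Human PrimeView arrays measured RNA from AG01522 fibroblasts. The deposited table gives log2 values, 1 per probe set and array; the authors ran RMA, which corrects background, equalizes array distributions by quantiles and summarizes probes, and the submitters' processing notes name it too. The study's methods also name a custom probe set definition and an interquartile range filter; the deposited table holds 49495 standard probe sets. Of these, 45278 were annotated to 1 gene, 1333 to several and 2884 to no gene. All 40 arrays entered 1 linear model with 13 group means (limma 3.58.1, R 4.3.3; 27 residual and 5.4 prior degrees of freedom). Adjusted p values are Benjamini-Hochberg over 18244 genes within each of 23 comparisons, two-sided, called under 0.05. Values after ± are standard errors. Per the labels, arrays of 1 group are biological replicates, and precision is limited by their number. Detection calls were not used here. The fit was tested on simulated data. Called members were described first, up to 8 per branch by smallest adjusted p, with up to 3 genes per context list. FADS1, HSD17B7, HMGCS1, MSMO1, STARD4, SREBF1, INSIG1, ELOVL6, FASN and the other uncalled members given with their values were chosen after their values were seen, as were PDSS1 and SMPDL3A among the context genes. The members, lists and tests were chosen with earlier results of these data known. Alternatives were another scaling, probe set rule, filter, threshold, covariate, block and set of arrays.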

Additional observations from a re-analysis of the deposited data

Results flagged for a closer look

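Among the 4 sham arrays of each of the 29 members, 1 value lay far from the other 3. SCD read 7.89 on sham array 2, against 8.68, 8.76 and 8.64 on the others. Chance sets apart about 1 in 20 such groups.

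For 2 members the change between 3 h and 24 h ran opposite ways in different treatments, with no overlap between the arrays of the 2 times in either treatment. A lack of overlap between these times was common among all 18244 genes. After 5 cGy 2449 lay higher at 24 h and 1451 lower, after 2 Gy 2297 and 3327, and after 5 cGy + 2 Gy 2378 and 2498. How many of all genes ran opposite ways between treatments was not counted. TM7SF2 read 6.77, 6.66 and 6.69 at 24 h after 5 cGy + 2 Gy, against 6.78, 6.94 and 6.87 at 3 h, and 6.79, 6.67 and 6.86 at 24 h after 5 cGy, against 6.56, 6.66 and 6.62 at 3 h, a difference between the changes of -0.32. FASN read 7.33, 7.38 and 7.40 at 24 h after 2 Gy, against 7.59, 7.61 and 7.74 at 3 h, and 7.49, 7.53 and 7.52 at 24 h after 5 cGy, against 7.43, 7.48 and 7.27 at 3 h, a difference between the changes of -0.40. In limma neither difference was called, the smallest adjusted p of any member being 1 for the pair of treatments of TM7SF2 and 0.394 for that of FASN. Of all genes, 3 were called for the pair of TM7SF2 and 0 for that of FASN.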

How the results depend on the processing

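Single members were followed under alternatives only for the 57 pairs of member and comparison with an unadjusted p under 0.05 in the main fit. Of their 874 values, 769 kept their direction and their side of the threshold, 29 lost the call, 76 gained one and 0 turned round. The filters, the study's threshold and the arrays compared alone keep the main differences, so direction could not turn there. At the study's threshold such a pair was called whenever it exceeded 1.2-fold. Other counts of called members were within 1.5 times those given unless named here. At 24 h after 5 cGy + 2 Gy against sham the count of 5 became 12 with the replicate block, 10 at the study's threshold (unadjusted p under 0.05 and over 1.2-fold), 0 with only the arrays compared, 3 with every array numbered 1 left out (chosen after seeing the data), and 1 to 8 when 1 array was left out. With the replicate block it became 3 at 12 h and 3 at 24 h after 5 cGy, 2 at 12 h and 4 at 24 h after 2 Gy, and 3 at 12 h after 5 cGy + 2 Gy, against 0 without it. Between 24 h and 3 h the block gave 3 after 2 Gy and 7 after 5 cGy + 2 Gy, and 15 members varied over the 13 groups, against 3. The labels name no batch behind the array numbers, which were not taken as pairs. Deviations correlated by 0.263 on average between arrays of the same number (-0.223 to 0.716) and by -0.12 otherwise (-0.671 to 0.658). Of 40 arrays, 29 were closest to their own number, and the calls without the block take no account of this. At the study's threshold the counts against sham were 1, 2 and 2 at 6, 12 and 24 h after 5 cGy, 2, 1 and 1 at 3, 12 and 24 h after 2 Gy, and 1 and 2 at 6 and 12 h after 5 cGy + 2 Gy. There, 5 cGy + 2 Gy against 2 Gy at 24 h gave 5, 2 Gy against 5 cGy at 3 h gave 1, and 24 h against 3 h gave 2 after 2 Gy and 9 after 5 cGy + 2 Gy. The ACLY count of 1 in 2 Gy at 24 h against 3 h became 0 with the mean of probe sets, only the arrays compared or the interquartile range filter, 2 with cyclic loess, 4 with every array numbered 1 left out, and 0 to 1 with 1 array left out. With every array numbered 1 left out, 1 member was called at 24 h after 5 cGy and 2 in 5 cGy + 2 Gy at 24 h against 3 h; with the mean of probe sets, 1 at 24 h after 2 Gy. With 1 array left out, 0 to 1 were called at 12 h after 5 cGy, at 24 h after 2 Gy, at 12 h after 5 cGy + 2 Gy and in 5 cGy + 2 Gy at 24 h against 3 h. These counts are given without the number of all genes called under the same setting, so they do not set the members apart from other genes. With 1 array left out, that number ran from 1117 to 2255 at 24 h after 5 cGy + 2 Gy against sham. It was 1809 with all arrays. The cause of these shifts was not tested. The filters on dim genes and on the interquartile range kept 27 and 26 of the 29 members.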
